A study of Mus musculus with 20 samples.

Results

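The DNA methylation system, here 10 of its genes, was followed through mouse preimplantation development after knockdown of P300, the histone acyltransferase encoded by Ep300. The genes were the methyltransferases Dnmt1, Dnmt3a and Dnmt3b, the catalytically inactive methyltransferase partner Dnmt3l, the maintenance factor Uhrf1, the dioxygenases Tet1, Tet2 and Tet3, the glycosylase Tdg and the imprint-protecting zinc finger protein Zfp57. All 10 were taken by symbol from a table of 25208 genes, and 9 of them passed the filter on low counts that left 16603 genes for testing. Tdg was listed at 0 in all 20 libraries.

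Embryos were cultured from the zygote in KSOM medium and sequenced with the Smart-seq2 protocol. Control embryos were labelled wild type and P300 siRNA embryos were labelled P300 knockdown, and both arms were sampled as late 2-cell and 4-cell embryos and at an early and a late 8-cell stage. At the late 8-cell stage there were also embryos with P300 siRNA and I1394G and embryos with P300 siRNA and NaCr, whose genotype labels are P300 knockdown with I1394G rescue and with NaCr rescue. The labels do not spell out either name; I1394G is taken here for a p300 point mutant and NaCr for sodium crotonate. Each of the 10 groups held 2 libraries, and the labels give no strain, no control siRNA, no dose and no number of embryos per library. Nothing in the labels says that the 2 libraries came from separate collections of embryos, so the p-values measure the spread between these libraries, which may be technical. The late 2-cell libraries were added to the archive after the others, and stage and any difference between these sets cannot be told apart between the late 2-cell and 4-cell stages. Tdgf1 had counts in the late 2-cell and 4-cell libraries alone, and Tdg-ps2 in the 8-cell libraries alone. Between the 4-cell and early 8-cell stages, stage and any difference between these sets cannot be told apart either.

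DNA methylation in mammals is copied after replication by Dnmt1, which Uhrf1 brings to hemimethylated DNA, and is placed on unmethylated DNA by Dnmt3a and Dnmt3b with the help of Dnmt3l. TET enzymes oxidise methylcytosine, after which Tdg and base excision repair, or dilution through replication, can restore unmodified cytosine. The embryo loses most parental methylation during cleavage, with Tet3 known as the TET enzyme of the oocyte and zygote, while Zfp57 and its co-repressor Trim28 keep methylation at imprinted regions. These are transcript levels only; methylation itself was not measured.

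Total counts ranged from 3.20 M in P300 siRNA late 8-cell replicate 1 to 24.8 M in I1394G replicate 2, and replicates correlated at 0.964 or above on the log2 scale. At an equal depth of 3202332 counts, the siRNA late 8-cell libraries were expected to hold 15920 and 16801 genes, against 14477 and 14422 in late 8-cell controls. The deposited FPKM values of control early 8-cell replicate 2 did not match its counts (correlation 0.908, at least 0.9988 in the other 19 libraries) and correlated best, at 0.965, with the counts of P300 siRNA early 8-cell replicate 2. Which of its columns is right is unknown. Without that library 0 members were called between siRNA and control at the early 8-cell stage, where the share of all genes called fell from 16.5% to 7.51%; the values of single members without it stand beside their results. Ep300, the target, held 86.1 and 83.8 CPM (counts scaled to library size) in late 2-cell controls and 22.6 and 29.9 CPM with siRNA. The groups lay apart, but the difference was not called (log2 -1.69 ± 0.37, adjusted p = 0.318 in edgeR's test, where 1 gene of all was called; DESeq2's Wald test called it, adjusted p = 0.00532). It fell at the 4-cell stage from 48.3 and 88.4 to 11.4 and 19.1 CPM and at the early 8-cell stage from 41.5 and 82.9 to 11.7 and 16.4 CPM (log2 -2.15, and -1.56 without control replicate 2, called in both fits). The 4-cell call was lost when edgeR fitted only the libraries compared (log2 -2.14, adjusted p = 0.0842). The early 8-cell call was lost with limma on FPKM (log2 -0.66, and -0.93 without the mismatched FPKM column). At the late 8-cell stage Ep300 was low in both arms, at 22.0 and 15.2 CPM in controls and 16.2 and 13.2 CPM with siRNA, and the difference was not called (adjusted p = 0.500). Summed over 8 genes of the preimplantation embryo, levels lay between 435 and 2027 CPM. Of other possible sources, 5 sperm genes summed to at most 3.35 CPM, and 8 cumulus or granulosa genes to between 23.1 and 77.9 CPM, nearly all from Amhr2, with Fshr and Amh at or near 0.

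The control embryos set the pattern against which the siRNA was read. Between the late 2-cell and 4-cell stages, 6 members fell and 2 rose, and 1 of the 9 tested members, Dnmt3b, was not called; over all genes 61.2% were called, 34.2% lower and 27% higher. Here and below, a call is an adjusted p under 0.05 in edgeR's quasi-likelihood test with Benjamini-Hochberg adjustment over all 16603 genes, and log2 fold changes are given with their SE. The median change of all genes in this step was -0.40 and moved by a further -0.25 with DESeq2 size factors in place of TMM factors, and the 8 members kept their direction with them.

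Tet3 made the largest fall of the 9 in that step. It stood at 290 and 330 CPM in late 2-cell controls and at 9.71 and 12.1 CPM in 4-cell controls, a 28.2-fold fall (log2 -4.82 ± 0.29, adjusted p = 2.3e-10). Uhrf1 fell 12.4-fold, from 115 and 131 to 10.9 and 8.98 CPM, and Zfp57 7.60-fold, from 365 and 276 to 35.6 and 48.6 CPM. Dnmt1, Dnmt3a and Dnmt3l fell by 2.15-fold to 2.35-fold. Dnmt3b was called too without control 4-cell replicate 1, whose 23.4 CPM lay far above the 8.43 CPM of replicate 2 (log2 -1.17, adjusted p = 0.0195). Summed over 10 transcripts stored in the oocyte, the level fell in the same step from 3820 and 3775 to 147 and 123 CPM; its part in the members' falls was not tested.

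Tet1 and Tet2 rose in the same step. Tet1 went from 50.4 and 55.0 to 99.7 and 138 CPM, and Tet2 from 8.45 and 7.00 to 20.7 and 17.6 CPM. No member was called between the 4-cell and early 8-cell stages, where 1.13% of all genes were called, 2 members had an unadjusted p under 0.05 and DESeq2 called 0. Without control 4-cell replicate 1, Dnmt3b was called higher in this step (log2 2.02, adjusted p = 0.00705). Between the early and late 8-cell stages 3 members were called, against 26.2% of all genes (15% higher, 11.2% lower): Tet2 and Dnmt3l rose and Tet1 fell. Tet2 rose 7.46-fold (log2 2.90 ± 0.27, adjusted p = 2.8e-06), from 16.8 and 15.3 to 126 and 113 CPM. Dnmt3l rose from 36.2 and 41.2 to 79.5 and 96.1 CPM, and Tet1 fell from 131 and 138 to 66.4 and 48.8 CPM. All 3 calls held without each early 8-cell control library in turn.

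**Figure D1:**
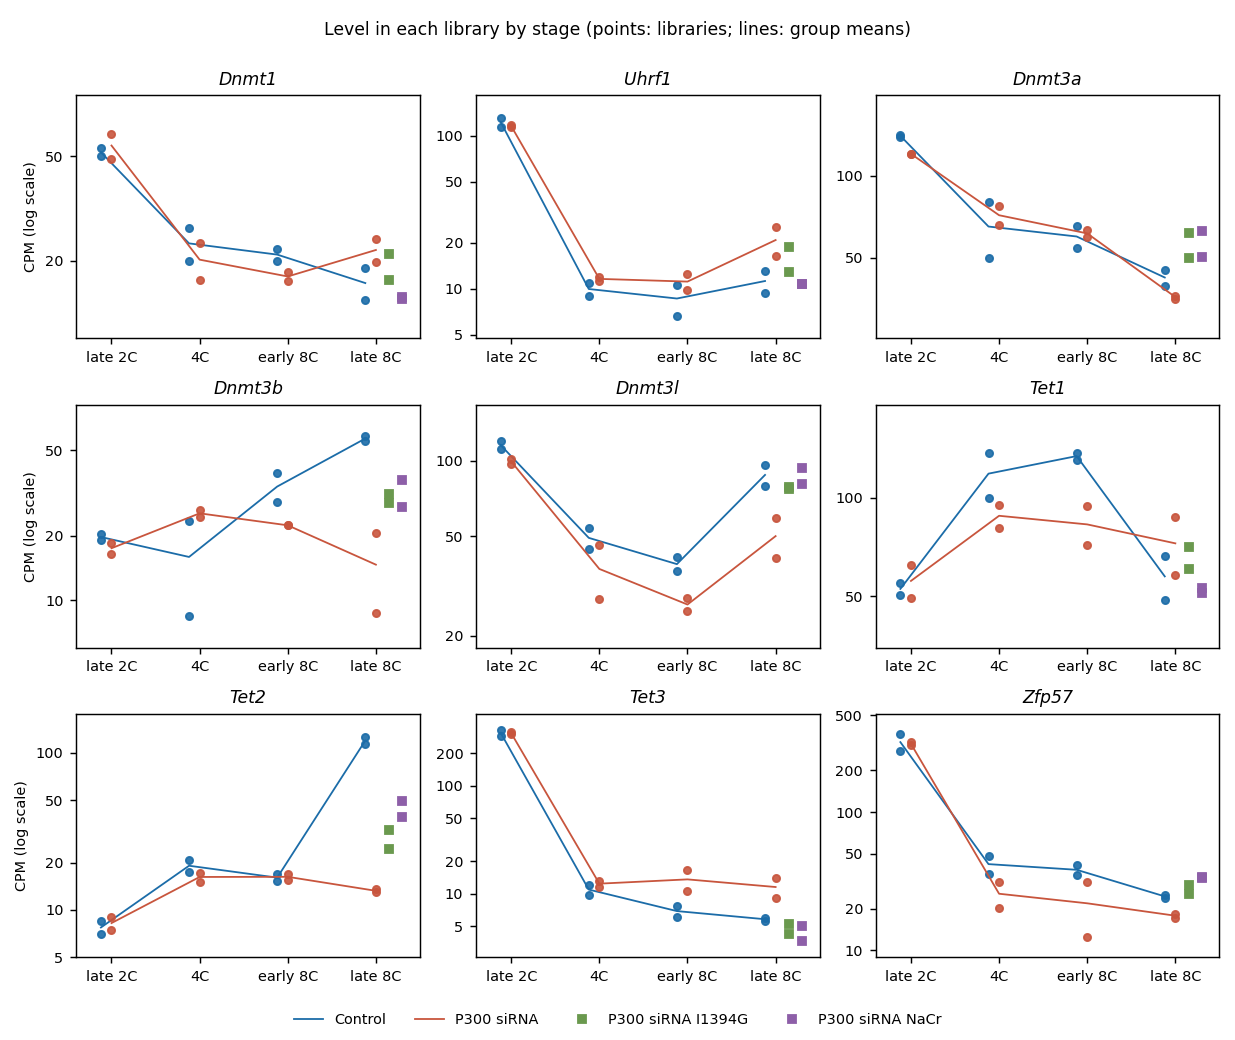
Level of each of the 9 tested members in every library, in CPM on a log axis, against stage. Points are libraries, lines join group means, and squares are the 2 treated groups of the late 8-cell stage; Tet2 in late 8-cell controls (113 and 126 CPM) stands above all other libraries.

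The most abundant TET transcript differed from stage to stage. Scaled by transcript length, so that genes can be compared, Tet3 made up 84.8% and 86.0% of TET counts in the 2 late 2-cell controls. Tet1 then held 69.3% and 76.6% in 4-cell controls and 78.6% and 81.5% in early 8-cell controls. In late 8-cell controls Tet2 held 72.7% and 76.1%. Among the Dnmt genes on the same scale, Dnmt3l was the most abundant in every library, with a share between 39.9% and 68.9%.

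**Figure D2:**
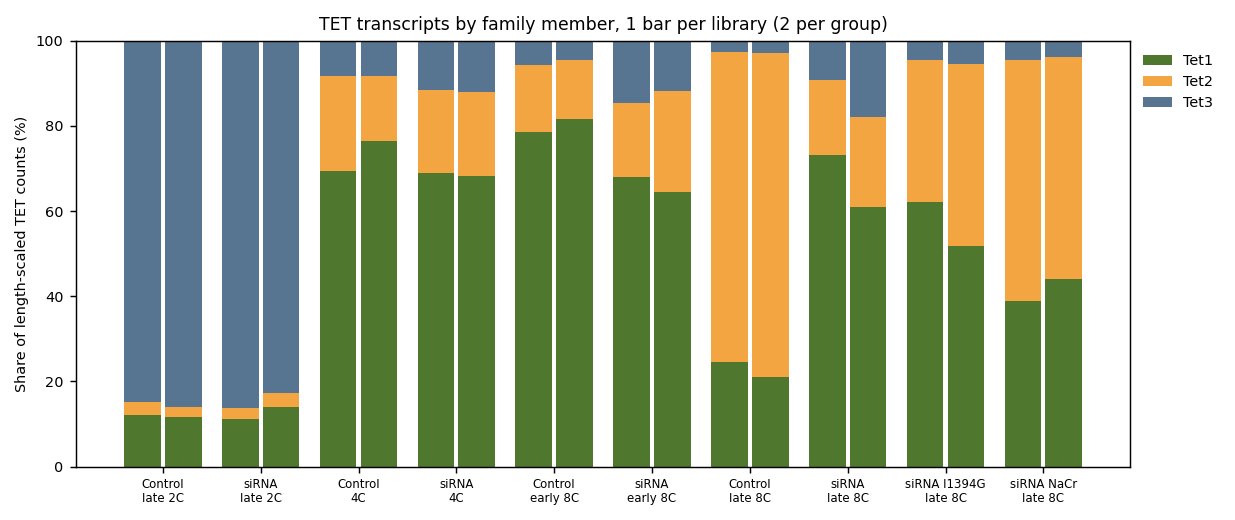
Share of Tet1, Tet2 and Tet3 in the length-scaled TET counts (%), 1 bar per library and 2 per group. Tet2 holds 72.7% and 76.1% in late 8-cell controls and 17.7% and 21.1% in late 8-cell P300 siRNA libraries.

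With P300 siRNA, Tet2 did not make that late rise. Its 2 siRNA libraries held 7.44 and 9.04 CPM at the late 2-cell stage, 17.3 and 15.1 CPM at the 4-cell stage and 15.5 and 17.0 CPM at the early 8-cell stage, with log2 differences from control of 0.10, -0.24 and 0.02 and no call (-0.05 at the last of these without control replicate 2). At the late 8-cell stage they held 13.5 and 12.9 CPM where controls held 126 and 113 CPM, and the groups were far apart. The difference was 9.07-fold (log2 -3.18 ± 0.27, adjusted p = 1.5e-06) and was called in 11 of 11 alternative settings. The siRNA effect on Tet2 differed among the 4 stages (joint test, adjusted p = 0.000139); with Dnmt3b it was 1 of the 2 members, of 9 tested, called in that test, against 16.3% of all genes. In siRNA libraries of that stage Tet1 held 73.1% and 60.9% of TET counts and Tet2 17.7% and 21.1%. The shallowest library, siRNA replicate 1, rests on 51 counts of Tet2, and the embryo list was also lower in these 2 libraries, at 435 and 457 CPM against 2027 and 1901 CPM in controls; the part of that difference was not tested.

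At the late 8-cell stage 5 of the 9 tested members were called, 3 lower and 2 higher, against 28% of all genes called, 14.3% lower and 13.6% higher. The median change of the members was -0.24 and that of all genes 0.06, and the latter moved by 0.14 with DESeq2 size factors. The share of higher genes among all calls was 48.8%, and 58.4% with those factors and 75.0% with FPKM. The lower members were Tet2, Dnmt3b and Dnmt3l. The higher ones were Tet3 and Uhrf1. In these bulk samples fewer cells with a transcript and less of it per cell cannot be told apart.

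The sequences upstream of 3 called members with a single start in the reference table are shown to place the genes, since Tet2 and Dnmt3b were lower and Tet3 higher at this stage. Each run is the 250 bases before the RefSeq start, 5′ to 3′ on the gene's strand (build GRCm38.p6, while the counts were made on mm9), with every CG, the site of DNA methylation and the same on both strands, in capitals.
Tet2, chr3:133544391-133544640, minus strand: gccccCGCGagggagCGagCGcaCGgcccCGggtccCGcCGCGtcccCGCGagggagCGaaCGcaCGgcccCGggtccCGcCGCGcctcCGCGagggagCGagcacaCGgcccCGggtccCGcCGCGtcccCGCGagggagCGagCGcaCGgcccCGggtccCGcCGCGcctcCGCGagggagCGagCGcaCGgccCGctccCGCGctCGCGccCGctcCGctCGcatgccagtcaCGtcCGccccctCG
Dnmt3b, chr2:153649199-153649448, plus strand: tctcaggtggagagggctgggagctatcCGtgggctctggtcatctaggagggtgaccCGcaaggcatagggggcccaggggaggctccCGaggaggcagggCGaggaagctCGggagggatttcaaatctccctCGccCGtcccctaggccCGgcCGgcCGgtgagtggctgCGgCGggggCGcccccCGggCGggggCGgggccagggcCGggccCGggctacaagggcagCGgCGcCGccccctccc
Tet3, chr6:83441679-83441928, minus strand: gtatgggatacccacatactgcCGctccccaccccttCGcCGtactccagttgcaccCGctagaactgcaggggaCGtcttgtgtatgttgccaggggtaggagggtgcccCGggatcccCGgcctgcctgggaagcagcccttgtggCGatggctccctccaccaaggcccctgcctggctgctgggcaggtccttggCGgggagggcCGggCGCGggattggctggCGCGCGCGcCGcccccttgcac
The Tet2 stretch holds 51 CG, and 0.0670% of the 32851 stretches in the table hold as many. The Dnmt3b stretch holds 21 (16.3% hold as many) and the Tet3 stretch 17 (23.5%), with a median of 6 over the table. These counts describe the letters only.

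Dnmt3b, the de novo methyltransferase of the early epiblast, fell 3.72-fold with siRNA at the late 8-cell stage. Controls held 58.2 and 55.2 CPM and siRNA libraries 8.76 and 20.6 CPM (log2 -1.89 ± 0.41, adjusted p = 0.00239). The siRNA libraries did not overlap the controls but lay far from each other, and replicate 1 rests on 33 counts. The call held in 11 of 11 alternatives, with log2 changes from -2.70 to -1.35. At earlier stages the arms were not told apart: siRNA libraries held 26.5 and 24.4 CPM at the 4-cell stage against 23.4 and 8.43 CPM in controls, and 22.4 and 22.4 CPM at the early 8-cell stage against 28.7 and 39.0 CPM (log2 -0.60, and -0.36 without control replicate 2). Without control 4-cell replicate 1 the 4-cell difference was called higher (log2 1.59, adjusted p = 0.0118). The siRNA effect differed among the stages (joint test, adjusted p = 0.0232), a call lost without either late 8-cell control library, without siRNA late 8-cell replicate 1, with only the libraries compared and with FPKM.

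Dnmt3l, which stimulates Dnmt3a and Dnmt3b, had a lower mean with siRNA at each of the 4 stages. Controls and siRNA libraries held 119 and 111 against 96.7 and 102 CPM at the late 2-cell stage, and 54.1 and 44.4 against 46.0 and 28.0 CPM at the 4-cell stage. They held 36.2 and 41.2 against 28.3 and 25.1 CPM at the early 8-cell stage (log2 -0.53, and -0.44 without control replicate 2), and 79.5 and 96.1 against 40.9 and 59.2 CPM at the late 8-cell stage. The mean of the 4 stages was called (log2 -0.49 ± 0.12, adjusted p = 0.00505), while among single stages the late 8-cell difference was called (log2 -0.80 ± 0.24, adjusted p = 0.0213). That single-stage call was lost in 6 of 11 alternatives, among them DESeq2 size factors (adjusted p = 0.0522), FPKM, and the fits without control replicate 2 or siRNA replicate 1. The call over the mean was lost with FPKM. Dnmt3a and Dnmt1 were not called in any siRNA comparison. At the late 8-cell stage Dnmt3a held 45.2 and 39.5 CPM in controls and 36.4 and 35.5 CPM with siRNA (log2 -0.24 ± 0.23), and Dnmt1 18.7 and 14.1 against 24.2 and 19.7 CPM (log2 0.41 ± 0.28). On the log2(FPKM + 1) scale limma called Dnmt1 (0.68, adjusted p = 0.0187) and Tet1 (0.66, adjusted p = 0.0389) higher at that stage, and both lower with NaCr than with siRNA (-0.78, adjusted p = 0.0124, and -0.74, adjusted p = 0.0293). On that scale the median change of all genes was 0.22 in the former comparison and -0.25 in the latter.

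Tet3 was higher with siRNA at both 8-cell stages, at a level far under that of the late 2-cell embryo. At the early 8-cell stage siRNA libraries held 16.4 and 10.7 CPM and controls 7.68 and 6.10 CPM, a 1.98-fold difference (log2 0.98 ± 0.27, adjusted p = 0.0182). This was the single member called there, against 16.5% of all genes (8.21% higher), and 4 members had an unadjusted p under 0.05. The call was lost without control replicate 2, the library whose FPKM does not match (log2 0.82, adjusted p = 0.148), without siRNA replicate 1, with FPKM and with only the libraries compared. At the late 8-cell stage the values were 9.03 and 14.0 against 5.96 and 5.63 CPM (log2 1.04 ± 0.27, adjusted p = 0.00822), a call lost without siRNA replicate 2, without either control library or with only the libraries compared. The mean of the 4 stages, 0.55 ± 0.13 (adjusted p = 0.00393), was called in all 23 alternatives. The effect was not called as different among stages (joint test, adjusted p = 0.0773), and was without control 4-cell replicate 1, siRNA early 8-cell replicate 2 or siRNA late 8-cell replicate 1. In late 2-cell embryos, where Tet3 is abundant, siRNA libraries held 314 and 300 CPM against 290 and 330 CPM.

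Uhrf1 was also higher at the late 8-cell stage, with 16.5 and 25.2 CPM against 13.0 and 9.43 CPM in controls (log2 0.91 ± 0.30, adjusted p = 0.0299). The call was lost without either control library, without siRNA replicate 2 and with only the libraries compared. Tet3 and Uhrf1 are both transcripts that were abundant at the late 2-cell stage, and the 10 stored oocyte transcripts summed to 34.0 and 45.7 CPM in the siRNA libraries against 27.5 and 23.3 CPM in controls. That sum was 41.0 and 29.8 CPM with I1394G and 32.2 and 44.0 CPM with NaCr, where Tet3 and Uhrf1 are given below. Of those 10 transcripts, 1 was called higher with siRNA (10%, against 13.6% of all genes), the oocyte growth factor Bmp15. The part of stored transcripts in the 2 differences was not tested. Zfp57, also abundant at the late 2-cell stage, held 17.3 and 18.4 against 25.3 and 23.9 CPM (log2 -0.46 ± 0.32, not called).

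Zfp57 and Tet1 showed smaller differences before the late 8-cell stage. Zfp57 held 20.2 and 31.2 CPM with siRNA at the 4-cell stage against 35.6 and 48.6 CPM, and 12.5 and 31.3 CPM at the early 8-cell stage against 41.5 and 35.1 CPM (log2 -0.81, and -0.93 without control replicate 2). Neither stage was called, but the mean of the 4 stages was (log2 -0.50 ± 0.16, adjusted p = 0.0201), a call lost in both FPKM settings and without late 2-cell control replicate 1. Without siRNA early 8-cell replicate 2, the higher one, Zfp57 was called at that stage (log2 -1.61, adjusted p = 0.00420). Tet1 held 94.2 and 71.8 CPM at the early 8-cell stage against 131 and 138 CPM in controls, and missed the threshold (log2 -0.69 ± 0.24, adjusted p = 0.0600); DESeq2's Wald test called it (adjusted p = 0.0328), and without control replicate 2 its log2 change was -0.66 (adjusted p = 0.198). Over the mean of the stages 4 members were called, Tet2, Dnmt3l and Zfp57 lower and Tet3 higher, against 30.7% of all genes (14.8% lower, 15.9% higher). Uhrf1 (log2 0.35 ± 0.15) and Dnmt3b (log2 -0.49 ± 0.20) were not called over the mean. DESeq2's Wald test and limma on FPKM called Uhrf1 higher (adjusted p = 0.0299 and 0.0175). Without a low-count filter edgeR called Dnmt3b lower (adjusted p = 0.0278). At the late 2-cell and 4-cell stages 0 of 9 members were called, against 0.00602% and 15% of all genes, with 0 and 1 members at an unadjusted p under 0.05 and 0 with DESeq2 at either stage.

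**Figure D3:**
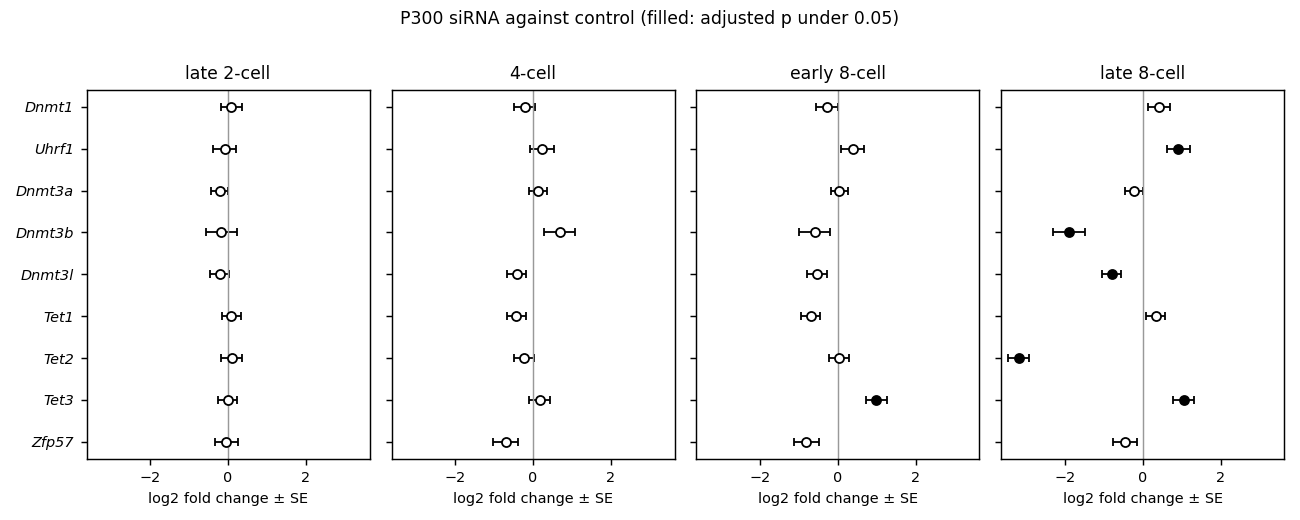
Log2 fold change of P300 siRNA against control with its SE for the 9 tested members at 4 stages; filled points passed an adjusted p of 0.05. The points at the late 2-cell stage lie near 0, and Tet2 at the late 8-cell stage reaches -3.18.

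In embryos that also received I1394G or NaCr, Tet2 was between the siRNA and control levels. It held 24.3 and 32.1 CPM with I1394G and 49.7 and 38.9 CPM with NaCr, so the 4 late 8-cell groups did not overlap: control, NaCr, I1394G and siRNA, in falling order. Tet2 was 2.14-fold above siRNA with I1394G (log2 1.10 ± 0.26, adjusted p = 0.0115) and 3.36-fold above it with NaCr (log2 1.75 ± 0.26, adjusted p = 0.000424). It was still 4.24-fold below control with I1394G (log2 -2.08 ± 0.26, adjusted p = 0.000400) and 2.70-fold below it with NaCr (log2 -1.43 ± 0.25, adjusted p = 0.00656). The NaCr value below control lost its call without either control library or without NaCr replicate 2, and the I1394G value above siRNA lost it without siRNA replicate 1, without I1394G replicate 2 and with FPKM. I1394G and NaCr did not differ by a call (log2 -0.65 ± 0.25, adjusted p = 1 in edgeR's test); 0 of all genes were called in that comparison, where 323 genes, Tet2 among them, had an unadjusted p under 0.05 and DESeq2 called 0. Ep300 stood at 14.8 and 16.2 CPM with I1394G and at 11.6 and 12.6 CPM with NaCr.

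Tet3 in these groups was at or under the control level. It held 4.19 and 5.24 CPM with I1394G and 5.02 and 3.61 CPM with NaCr, against 9.03 and 14.0 CPM with siRNA alone and 5.96 and 5.63 CPM in controls. Both treated groups were called lower than siRNA (log2 -1.34 ± 0.27, adjusted p = 0.00493, and -1.44 ± 0.28, adjusted p = 0.00236), and neither was called against control. Both calls were lost without siRNA replicate 2, the higher of the siRNA libraries; the first was also lost without I1394G replicate 1 and with only the libraries compared. NaCr also gave calls for Dnmt3l, at 93.4 and 80.7 CPM (log2 0.79 ± 0.24 above siRNA, adjusted p = 0.0366), and for Uhrf1, at 10.8 and 10.8 CPM (log2 -0.97 ± 0.30, adjusted p = 0.0371), which were lost in 7 and 4 of 11 alternatives. Both were lost without either NaCr library; Dnmt3l was also lost without siRNA replicate 1 and Uhrf1 without siRNA replicate 2.

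In all, 2 members were called with I1394G and 4 with NaCr against siRNA, where 10.8% and 15.3% of all genes were called. With I1394G 1 was higher and 1 lower (6.19% and 4.58% of all genes), and with NaCr 2 were higher and 2 lower (8.77% and 6.57%). The split of all genes turned with the scaling: higher genes were 57.5% of calls for I1394G and 57.2% for NaCr, 45.3% and 48.0% with DESeq2 size factors, and 14.9% and 15.2% with FPKM. Against control, Tet2 was the 1 member called in each, where 3.17% and 1.57% of genes were (1.18% and 0.5% lower). Dnmt3b lay in between as well, at 28.3 and 31.4 CPM with I1394G and 36.3 and 27.1 CPM with NaCr, with no call against siRNA (adjusted p = 0.123 and 0.0809) or against control (0.227 and 0.360, edgeR). With only the libraries compared it was called lower than control in both groups (adjusted p = 0.00163 and 0.0212), and without a low-count filter NaCr was called above siRNA (adjusted p = 0.0287). Without siRNA late 8-cell replicate 2 both differences from siRNA were called (log2 1.78 and 1.87, adjusted p = 0.0304 and 0.0209). Zfp57 held 29.7 and 25.5 CPM with I1394G and 33.5 and 33.7 CPM with NaCr, above all siRNA and control libraries of that stage. It had no call in the fit reported, but without a low-count filter edgeR called NaCr above siRNA (log2 0.92, adjusted p = 0.0109). Dnmt3a also lay above all siRNA and control libraries of that stage, at 61.6 and 50.1 CPM with I1394G and 50.5 and 62.9 CPM with NaCr. It had no call in the fit reported (log2 0.64 and 0.66 against siRNA, adjusted p = 0.0822 and 0.0620, edgeR). With only the libraries compared, edgeR called Dnmt3a above control with I1394G (log2 0.47, adjusted p = 0.0442). These comparisons share the siRNA or the control libraries with the siRNA comparison, so their values are not independent of it. The embryo list summed to 1249 and 1280 CPM with I1394G and 1719 and 1842 CPM with NaCr, and its part in the members' levels was not tested. The 8 cumulus or granulosa genes summed to 68.0 and 59.3 CPM with I1394G and 53.4 and 74.4 CPM with NaCr, against 31.9 and 23.7 CPM in controls and 23.1 and 32.1 CPM with siRNA. Of the 4 tested, Amhr2 and Cyp11a1 were called higher than control in both groups; their part in the members' levels was not tested.

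**Figure D4:**
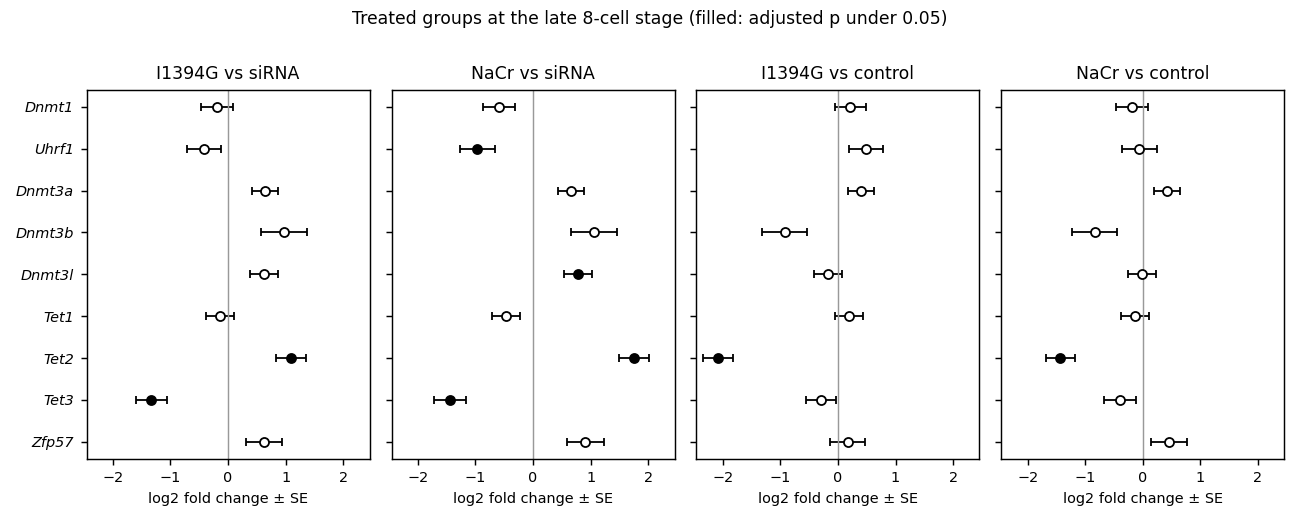
Log2 fold change with its SE for the 9 tested members in the I1394G and NaCr groups against siRNA alone and against control, late 8-cell stage; filled points passed an adjusted p of 0.05. Tet2 is filled in all 4 panels, above 0 against siRNA and below 0 against control. Tet3 is also filled in both panels against siRNA, and Dnmt3l and Uhrf1 in that of NaCr against siRNA.

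Partner genes of the same system were read from 6 lists with 44 genes, of which 43 were tested. With siRNA at the late 8-cell stage 9 were higher and 14 lower; at the 4-cell stage the counts were 2 and 4, at the early 8-cell stage 5 and 4, and at the late 2-cell stage 0 and 0. The called share was 53.5% at the late 8-cell stage, against 28% of all genes. It was 14% at the 4-cell stage, against 15% of all genes, and 20.9% at the early 8-cell stage, against 16.5%, so at these 2 stages it lay near the background. The median change at the late 8-cell stage was -0.12 over the lists and 0.06 over all genes. Against control, 0 of the 43 were called in either treated group by edgeR. Of all genes 3.17% were called with I1394G and 1.57% with NaCr, so the 0 lay near the background. Up to 5 partners with I1394G and 4 with NaCr were called when only the libraries compared were fitted. The late 8-cell calls of Dppa3, Apex1, Lig3, Gadd45g, Mat2b and Kdm2b described next held in 11 of 11 alternatives, those of Ehmt2 and Mat2a were lost in 8, and the 23 calls fell to 11 without control replicate 1. At the 4-cell stage the 6 calls fell to 0 with only the libraries compared. At the early 8-cell stage the 9 calls fell to 3 without control replicate 2, to 0 with FPKM and to 6 with FPKM without its mismatched column.

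Of 6 genes of imprint protection and its co-repressors, 3 were called lower at the late 8-cell stage and 0 higher, where 14.3% of all genes were lower. Dppa3, which shields the maternal genome from oxidation by Tet3, held 7264 and 6734 CPM in controls and 3010 and 3601 CPM with siRNA (log2 -1.08 ± 0.16, adjusted p = 0.0001). It was called lower at the 4-cell and early 8-cell stages too, and higher than siRNA with I1394G and NaCr. The 4-cell call was lost without siRNA 4-cell replicate 2. Ehmt2, an H3K9 methyltransferase, was called lower at the same 3 stages, calls lost without siRNA replicate 2 at the 4-cell stage, without control replicate 2 or siRNA replicate 2 at the early 8-cell stage, and without replicate 1 of either arm at the late 8-cell stage. Trim28, the co-repressor bound by Zfp57, fell at the late 8-cell stage (log2 -0.92 ± 0.25), a call lost without replicate 1 of either arm and with FPKM, and Setdb1 was called lower over the mean of stages.

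Of 14 base excision and demethylation partners, 5 were called lower and 4 higher at the late 8-cell stage (35.7% and 28.6%), against 14.3% and 13.6% of all genes. Apex1, the endonuclease that follows Tdg, held 581 and 526 CPM in controls and 215 and 204 CPM with siRNA, and Lig3, a repair ligase, fell from 111 and 116 to 50.4 and 38.0 CPM. The higher ones included Gadd45b and Gadd45g, stress-inducible genes: Gadd45b held 12.3 and 14.0 CPM in controls and 69.6 and 71.0 CPM with siRNA. Its call was lost without either control library. Both were called lower than siRNA with I1394G, calls lost without either I1394G library, and with NaCr, where the Gadd45b call was lost without NaCr replicate 1 and the Gadd45g call without siRNA replicate 2 or NaCr replicate 2.

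Of 6 genes of methyl donor and cofactor supply, 1 was called higher and 4 lower at the late 8-cell stage, against 13.6% and 14.3% of all genes. Idh1, which makes the alpha-ketoglutarate that TET enzymes use, held 428 and 476 CPM in controls and 188 and 172 CPM with siRNA, and was called lower at the 4-cell stage (lost without siRNA replicate 2) and early 8-cell stage as well. Idh2 and Mat2a, which makes S-adenosylmethionine, were lower, while Mat2b, its regulatory subunit, was higher. Among 6 maintenance partners, Uhrf2, the paralog of Uhrf1, and Pcna, the replication clamp, were higher (both late 8-cell calls were lost without control replicate 2 or siRNA replicate 1, and Pcna also without control replicate 1) and Cdca7, part of a remodelling complex with Hells, was lower. At the late 8-cell stage 33.3% of these partners were called higher and 16.7% lower, against 13.6% and 14.3% of all genes. Kdm2b, which binds unmethylated CpG islands, was lower at the 4-cell, early and late 8-cell stages (the early 8-cell call was lost without control replicate 2), and Cxxc5 was higher at the 4-cell stage. In their list 4 genes were tested, and 1 was called at the early and 1 at the late 8-cell stage. That was 25%, against 16.5% and 28% of all genes. At the 4-cell stage 2 of the 4 were called, against 15% of all genes. Of 7 methyl-CpG readers 2 were called at the late 8-cell stage (28.6%, the background being 28%), Mbd2 and Zbtb38, both higher from controls under 1 CPM (calls lost without either control library or siRNA replicate 1, and for Zbtb38 siRNA replicate 2). Mbd1 was the 1 reader called at the early 8-cell stage, higher with siRNA (14.3%, against 16.5% of all genes). Its log2 change was 3.92, and 10.1 without control replicate 2, so its size rests on that library.

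By the pattern of group-mean log2(CPM + 1) over the 10 groups, the 5 genes most like Tet3 were Cep85, 9330102E08Rik, Btla, Sfmbt1 and Errfi1, each with a Pearson r of 0.996. Those most like Zfp57 were Rhobtb1, Elk3, Slc45a3, D1Pas1 and Kctd13, with r from 0.989 to 0.996. Tet3 and Zfp57 had the widest range of the 9 members, 5.88 and 4.08 on the log2 scale, set by the 2 late 2-cell groups, which the points share.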

How the data were processed

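RNA was measured by Smart-seq2 in 20 libraries of 10 groups, grouped by their titles. The deposited table of raw counts per gene came from the authors; the FPKM values were also deposited by the authors. Tools and build, per the submitters' processing notes, were HISAT2 2.2.1, Cufflinks 2.2, cutadapt 4.1 and bcl2fastq 2.20.0.422 with mm9; settings and strand of counting are not given in the sources used here, so overlapping and antisense genes could share reads. Both tables list 25208 genes, and each column was matched to a sample by its description.

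Counts were fitted here in R 4.3.3 with edgeR 4.0.16 (TMM, filterByExpr by group, 16603 genes, 1 coefficient per group, 10 residual degrees of freedom) and tested two-sided by the quasi-likelihood F test, with Benjamini-Hochberg adjustment over all genes. CPM uses TMM-scaled library sizes, and SE is the size of the log2 change over the square root of F. Shares within a family divide counts by each gene's counts per FPKM, which stands for its length. For 9 members this ratio varied by at most 1.44% over 19 libraries. The procedure was tested on simulated data. Alternatives were DESeq2 size factors, the DESeq2 1.42.0 Wald test, no low-count filter, only the libraries compared, a replicate block, limma 3.58.1 on log2(FPKM + 1) for genes with at least 1 FPKM in 2 libraries, and leaving out each library. Limma without the mismatched FPKM column was added after seeing the data.

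Members and lists were chosen with earlier results of these data known. Named genes were the members, Ep300, the 5 genes most like each of the 2 widest-ranging members, and up to 4 called partners per list in order of adjusted p. Upstream sequences are RefSeq's (GRCm38.p6); all 10 members matched. Tdg was not tested.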

Additional observations from a re-analysis of the deposited data

Results flagged for a closer look

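The siRNA effect on 2 of the 9 tested members differed among the 4 stages in edgeR's joint test, where 16.3% of all genes were called. For Tet2 the adjusted p was 0.000139, with log2 changes of 0.10, -0.24, 0.02 and -3.18 from the late 2-cell to the late 8-cell stage, and the call held in 22 of 22 alternatives. For Dnmt3b the adjusted p was 0.0232, with changes of -0.17, 0.69, -0.60 and -1.89, and the call was lost in 5 of 22, where the adjusted p reached 0.0714. The 2 control 4-cell libraries of Dnmt3b, at 23.4 and 8.43 CPM, and the 2 siRNA late 8-cell libraries, at 8.76 and 20.6 CPM, lie far from each other.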

How the results depend on the processing

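No member's called change reversed in any alternative. Over the mean of stages, Cdca7 had a log2 change of 0.0099 with FPKM, against a called -0.40, and Mat2b was called at 0.26 with FPKM without the mismatched column, against an uncalled -0.0038; the causes were not tested. The calls among the 43 partners ranged from 11 to 23 at the late 8-cell stage (23 in the fit reported), 0 to 10 at the early 8-cell stage (9), 0 to 9 at the 4-cell stage (6) and 4 to 20 in the joint test (13). They went down to 2 for I1394G against siRNA (14), without I1394G replicate 1, and to 6 for NaCr against siRNA (17), without NaCr replicate 2. At the early 8-cell stage the 1 call became 2 without a low-count filter and with DESeq2's Wald test, and 0 with only the libraries compared, with FPKM, and with FPKM without the mismatched column. With only the libraries compared, which leaves 2 residual degrees of freedom in a comparison of 2 groups, the calls were 2 at the late 8-cell stage, 1 in the joint test, 1 and 2 for I1394G and NaCr against siRNA, and 3 and 2 for them against control. FPKM gave 1 call in the joint test, 1 for I1394G against siRNA and 6 between early and late 8-cell controls (2, 2 and 3 without the mismatched column), 6 at the late 8-cell stage and 5 for NaCr against siRNA (6 and 5). DESeq2's Wald test was not run for the joint test. Leaving out 1 library in turn, the calls ranged from 2 to 4 at the late 8-cell stage (5 with all), 0 to 2 at the early 8-cell stage, 0 to 1 at the 4-cell stage, 0 to 0 at the late 2-cell stage, 3 to 5 over the mean, 1 to 4 in the joint test, 1 to 3 for I1394G and 2 to 3 for NaCr against siRNA, 1 to 1 and 0 to 1 for them against control and 0 to 0 between them. Among controls they ranged from 8 to 9, from 0 to 1 and from 3 to 3 in the successive steps. A lone library left in a group is assumed to vary like the other groups.

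Deviations of same-numbered libraries correlated at over 0.1 in 5 of 45 pairs of groups (-0.0957 to 0.431, median 0.0011), not in all, so the numbers were not taken to pair them. With a replicate block the member calls were 0, 0, 1 and 5 at the 4 stages and 4 over the mean, as without it, and no other member count moved. Partner calls went from 17 to 14 for NaCr against siRNA, and calls over all genes from 4645 to 4563 at the late 8-cell stage.

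Over all genes, calls at the 4-cell stage ranged from 59 with only the libraries compared to 3218 with DESeq2 (2494 in the fit reported), at the early 8-cell stage from 203 with FPKM (1711 without the mismatched column) to 3513 with DESeq2 (2741), and at the late 8-cell stage from 2215 without control replicate 2 to 5185 with only the libraries compared (4645). At the late 2-cell stage they ranged from 0 to 508 (1). Calls for I1394G against siRNA ranged from 449 to 2896 (1789), for NaCr against siRNA from 912 to 4010 (2546), for I1394G against control from 56 to 4031 (527) and for NaCr against control from 12 to 2263 (261). The joint test called 1188 to 4473 (2703), I1394G against NaCr 0 to 20 (0), 4-cell against early 8-cell controls 70 to 928 (187) and early against late 8-cell controls 2010 to 4957 (4346). Low levels limit Tet3 and Uhrf1 after the 2-cell stage and Dnmt3b in the shallowest library.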

Other observations

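Tdg is 1 of 3128 genes listed at 0 in all 20 libraries of both tables. Gapdh, which every cell uses, is listed at 0 to 45 counts in the late 2-cell and 4-cell libraries. In the early and late 8-cell libraries it is listed at 3 to 217 counts. Whether a listed 0 stands for an absent transcript or a failed assignment was not tested. Tdgf1 has 6 to 1338 counts in the 8 late 2-cell and 4-cell libraries and 0 in all 12 early and late 8-cell libraries, while Tdg-ps2 has 0 in the former and 251 to 2604 in the latter. The scaled counts per FPKM, which follow gene length, are 0.843 for Tdgf1 where it has counts and 0.845 for Tdg-ps2 where it has counts. Both genes were chosen after their values were seen, because their names neighbour Tdg.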
